A study of Mus musculus with 12 samples.

Results

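Transcripts of the translation initiation factors were followed in CD4 T cells from the mouse spleen. The members were all loci whose gene name starts with Eif and a digit from 1 to 6, and their level in a library was the largest of the summed transcript starts, the summed transcript ends and the highest single event, in FPKM, an abundance corrected for transcript length and for the size of the library. The files listed 49 such genes among 15125 loci. 2 of them were set aside because their introns match a neighbour: the locus listed as Eif4e3 shares 4 intron lengths with that gene and 13 with Foxp1, and the locus listed as Eif4ebp3 shares 0 with its own gene and 12 with Ankhd1. The other 47 are described here, and all 47 passed the filter on low values (FPKM of at least 1 in at least 3 libraries), which 9743 loci passed in all.

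The 12 libraries form 4 groups of 3, which are KIKO activated, KI activated, KIKO naive and KI naive cells. KIKO and KI are the names in the labels, and the alleles behind them, the age and the sex of the mice are not given in the sources used here. Activated cells had been kept with CD3/CD28 activator beads for 16 h. CD4 is missing from the sample titles of KIKO activated cells and present in the other titles. No label says that the 3 libraries of a group come from separate mice, so the p-values measure the spread between these libraries, which may in part be technical. The Y-linked transcripts given below differed within each KI group, so neither KI group came from a single mouse.

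Initiation factors bring the initiator tRNA, the small ribosomal subunit and the mRNA together at a start codon. eIF2 delivers the initiator tRNA as a GTP complex and is recharged by eIF2B, a step that stress kinases block by phosphorylating eIF2. eIF4F binds the mRNA cap through eIF4E, which the eIF4E-binding proteins hold back until mTOR phosphorylates them, and eIF3 joins the cap complex to the ribosome. Resting T cells make little protein, and stimulation through the antigen receptor raises their rate of protein synthesis before they divide.

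The libraries held the defining transcripts of CD4 T cells, with Cd4 at 86.4 to 221 FPKM, while the summed FPKM of B cell markers was at most 2.78, of CD8 T cell markers at most 16.1 and of NK and cytotoxic cell markers at most 24.6. The summed FPKM of 9 T cell markers was 823 to 1060 in KIKO activated, 1450 to 1660 in KI activated, 1200 to 1390 in KIKO naive and 1630 to 1710 in KI naive libraries, with 8 of the 9 markers listed. The summed FPKM of 5 activation markers was 264 to 403 in KIKO activated and 468 to 522 in KI activated libraries, and 20.1 to 24.6 in KIKO naive and 18.6 to 21.5 in KI naive libraries. Both KIKO libraries numbered 2 held myeloid transcripts, with summed FPKM over 8 markers of 198 in the activated and 236 in the naive one, against 28.1 to 45.0 in the other 10 libraries. Both KI libraries numbered 3 listed none of the 3 Y-linked genes Ddx3y, Kdm5d and Uty, which all other libraries listed. Absent Y-linked transcripts mark cells of female mice, so every KIKO library was of the male type while each KI group was mixed. Sex was thus not balanced between the genotypes. The counts of members without either pair are given beside the main counts. Of the activation markers, Il2ra, Myc and Tfrc were lower in every KIKO activated library than in any KI activated one, Nr4a1 was higher in every one, and Cd69 overlapped. The summed T cell markers were lower in KIKO than in KI libraries in both activated and naive cells. The part of these markers in the results below was not tested.

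In activated cells, the initiation factors were mostly lower in KIKO than in KI. Of the 47 members, 25 were lower and 5 were higher in KIKO (limma, adjusted p under 0.05), where 40.0% of all loci tested were called, 19.3% lower and 20.7% higher. The median log2 difference of the members was -0.33, against 0.04 over all loci. The lower ones reached every branch of the pathway except the eIF2 kinases, and the largest were Eif5a, Eif4a1, Eif3i and Eif2s1. The 5 higher members were Eif4ebp1, Eif2ak2, Eif5, Eif1 and Eif2ak3, of which Eif4ebp1, Eif2ak2 and Eif2ak3 encode restraints on initiation. Restraints did not move as a class. Eif4enif1 and Eif4e2, which also encode repressors, were lower in KIKO, and Eif4ebp2, Eif2ak1 and Eif2ak4 were not called. In bulk RNA, fewer cells with a transcript and less of it in each cell cannot be told apart. When libraries were scaled to equal sums, the median of all loci moved to 0.15 and the calls over all loci stood at 2618 higher and 1417 lower, in place of 2021 and 1877, and the members still counted 6 higher and 20 lower. Without both KI libraries numbered 3 the members counted 5 higher and 22 lower, and without both KIKO libraries numbered 2 they counted 4 and 25. The calls of Eif3j1, Eif4g3, Eif4h and Eif5 were lost without the KI pair, and those of Eif4h and Eif5 without the KIKO pair.

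In naive cells few initiation factors were called. Of 47 members, 2 were higher in KIKO, Eif3d and Eif3e, and 0 were lower, where 10.4% of all loci were called, 6.46% higher and 3.9% lower (limma). At an unadjusted p under 0.05, 8 members were higher and 3 lower. All loci were not counted at that threshold, so the shares above are no background for these 2 counts. Without both KI libraries numbered 3 the call of Eif3d was lost, and without both KIKO libraries numbered 2 that of Eif3e. The median log2 difference of the members was 0.09, against 0.05 over all loci. The split of calls over all loci was 629 higher and 380 lower, and it was 1123 and 263 with equal sums, 429 and 542 with median-ratio scaling and 485 and 506 with quantile normalization. Under these 3 scalings 9, 0 and 5 members were called higher.

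Most members were higher in activated than in naive cells of both genotypes. In KI, 36 of 47 members were higher and 2 were lower, where 61.7% of all loci were called, 32.2% higher and 29.5% lower (limma). In KIKO, 27 were higher and 3 lower, where 47.3% of all loci were called, 25.1% higher and 22.2% lower. The median log2 difference of the members on activation was 0.45 in KIKO and 0.87 in KI, against medians over all loci of 0.00 in KIKO and -0.01 in KI. The members called higher in both genotypes numbered 25, and 11 were called higher in KI and not called in KIKO. This overlap was not counted over all loci. A call in KI without a call in KIKO is not by itself a difference in response, which the interaction below tests. The interaction was called lower for 20 of the 36 members that rose in KI, and for 16 of the 25 that rose in both. Without both KI libraries numbered 3 the counts were 28 higher and 3 lower in KIKO and 35 and 2 in KI. Without both KIKO libraries numbered 2 they were 23 and 2 in KIKO and 38 and 2 in KI. The comparisons share libraries, KI activated ones standing in both the genotype and the activation comparison.

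The size of the response was tested as the interaction, which is the activated minus naive difference in KIKO less that in KI. It was lower in KIKO for 20 of 47 members and higher for 2, Eif4ebp1 and Eif2ak3, where 20.6% of all loci were called, 11.6% lower and 8.99% higher (limma). The median interaction of the members was -0.41, against -0.01 over all loci. Without both KI libraries numbered 3, the interaction was called lower for 12 members and higher for 1, and 1165 loci were called in place of 2010. The members whose interaction lost its call there were Eif2a, Eif2ak3, Eif2b5, Eif3g, Eif3j1, Eif3m, Eif4a1, Eif4e2, Eif4h and Eif5b. Without both KIKO libraries numbered 2, the interaction was called lower for 19 members and higher for 2.

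**Figure D1:**
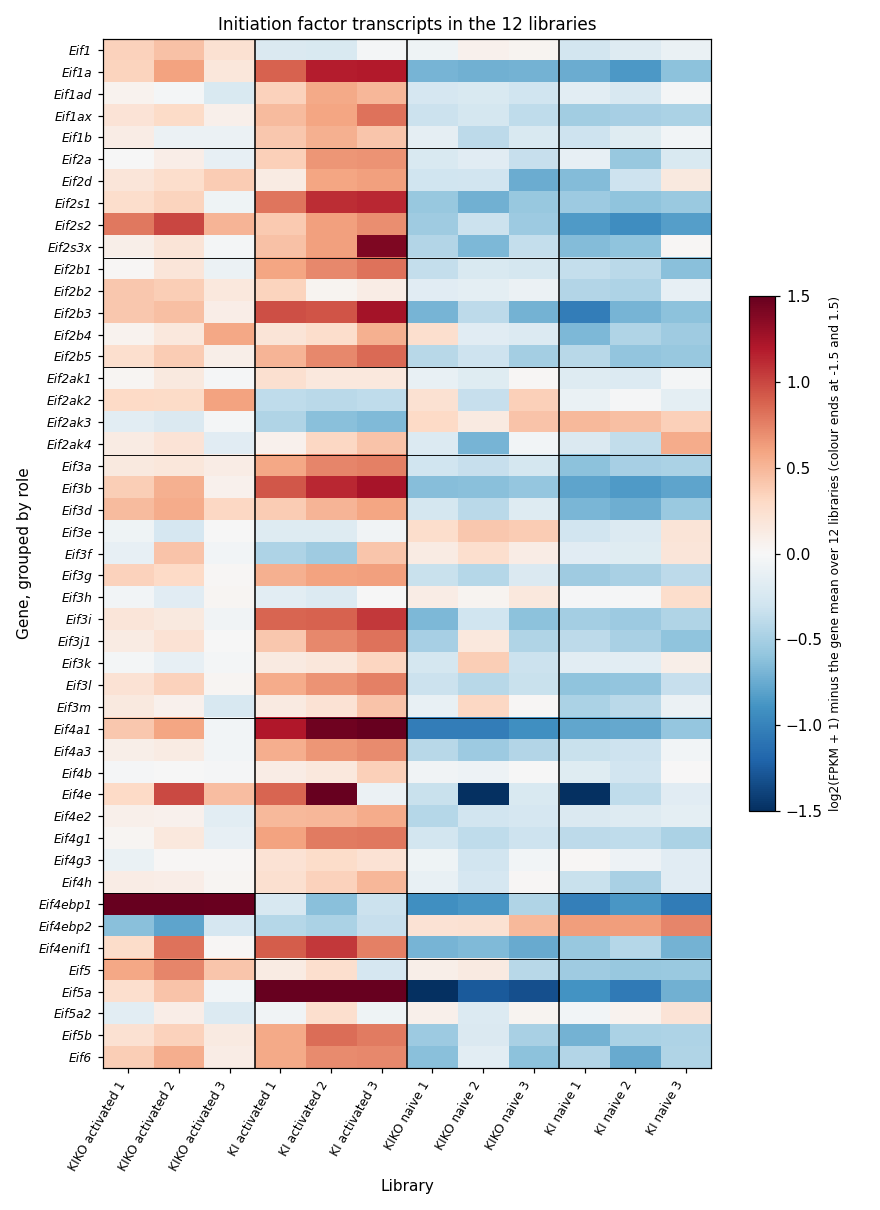
Level of the 47 initiation factor genes in the 12 libraries, as log2(FPKM + 1) minus the mean of the gene over all libraries, with colours ending at -1.5 and 1.5. For most genes KI activated libraries are the reddest columns, and the KIKO activated columns lie between them and the naive columns. The KIKO activated mean is the highest for Eif4ebp1, Eif1, Eif5, Eif2s2, Eif2b2 and Eif2ak2. A naive group has the highest mean for others, such as Eif2ak3, Eif4ebp2 and Eif3e.

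**Figure D2:**
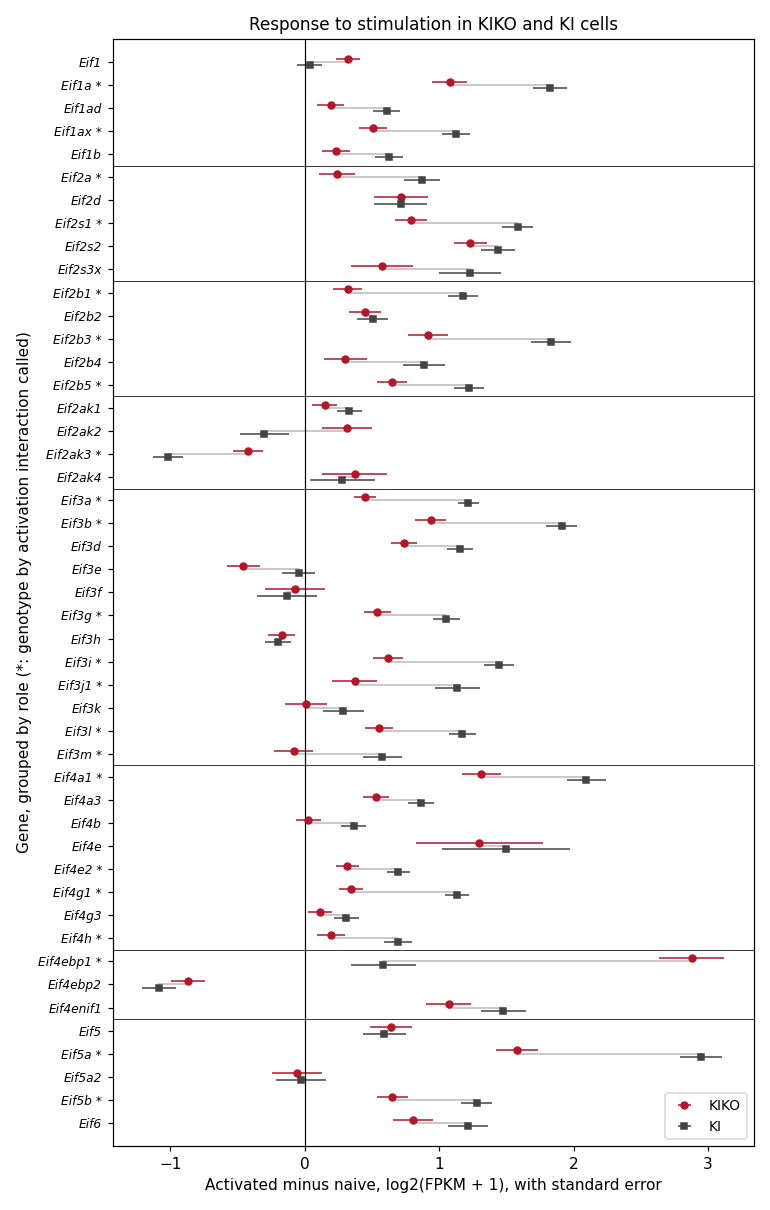
Activated minus naive difference of each gene on the log2(FPKM + 1) scale with its standard error from the limma fit, KIKO in red circles above KI in grey squares, with an asterisk at the 22 genes whose interaction was called. In 37 of 47 genes the KIKO point lies left of the KI point, and Eif4ebp1 and Eif2ak3 carry the asterisk with the KIKO point to the right.

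Promoter windows of 4 members are shown because the first 3 rose on stimulation and by less in KIKO, while the last did not pass the test in any comparison, and all 4 hold the letters CACGTG, the E-box bound by MYC and its relatives. The windows are RefSeq sequences of build GRCm38.p6 and run from 250 bases before to 50 bases after the annotated start, on the strand of the gene, with CACGTG in capitals. They lie at chr11:69921337-69921636 on the minus strand for Eif5a, chr11:69672374-69672673 on the minus strand for Eif4a1, chr16:20672477-20672776 on the plus strand for Eif4g1 and chr7:108934165-108934464 on the plus strand for Eif3f.
Eif5a: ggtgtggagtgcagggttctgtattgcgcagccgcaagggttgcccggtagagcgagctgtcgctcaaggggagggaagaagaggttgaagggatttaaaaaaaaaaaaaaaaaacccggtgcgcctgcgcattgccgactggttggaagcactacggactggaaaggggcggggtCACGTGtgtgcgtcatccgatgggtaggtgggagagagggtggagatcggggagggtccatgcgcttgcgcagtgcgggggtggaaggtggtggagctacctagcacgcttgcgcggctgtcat
Eif4a1: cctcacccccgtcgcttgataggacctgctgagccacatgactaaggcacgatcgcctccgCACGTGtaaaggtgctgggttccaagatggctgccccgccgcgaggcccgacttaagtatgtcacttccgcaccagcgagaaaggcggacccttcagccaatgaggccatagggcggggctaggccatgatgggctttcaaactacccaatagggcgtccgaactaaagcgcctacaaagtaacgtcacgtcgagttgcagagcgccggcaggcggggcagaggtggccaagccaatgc
Eif4g1: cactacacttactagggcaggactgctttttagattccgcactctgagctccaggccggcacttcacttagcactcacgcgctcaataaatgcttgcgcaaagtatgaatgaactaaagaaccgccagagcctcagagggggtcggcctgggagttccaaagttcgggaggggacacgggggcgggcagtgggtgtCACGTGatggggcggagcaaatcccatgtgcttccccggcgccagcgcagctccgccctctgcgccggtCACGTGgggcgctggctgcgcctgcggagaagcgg
Eif3f: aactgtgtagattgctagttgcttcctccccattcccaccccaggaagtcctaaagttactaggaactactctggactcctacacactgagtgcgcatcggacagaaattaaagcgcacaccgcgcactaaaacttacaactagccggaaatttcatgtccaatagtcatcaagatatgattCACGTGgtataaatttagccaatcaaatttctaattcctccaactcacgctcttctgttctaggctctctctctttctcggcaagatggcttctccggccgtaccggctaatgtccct
The first base of the match is 74 bases before the start in Eif5a, 189 before it in Eif4a1, 54 before it in Eif4g1 with another at base 16 after it, and 68 before it in Eif3f. In Eif3f the transcript also opens with 11 pyrimidines in a row, the mark of a terminal oligopyrimidine mRNA. RefSeq windows were matched by symbol for 40 of the 47 members. Eif4ebp1 had no window and was not searched. CACGTG, which reads the same on both strands, was in 12 of the 53 windows of these members, some of which overlap, and in 7.15% of 32851 windows of the genome. The 10 members with it were Eif1b, Eif3a, Eif3f, Eif3k, Eif4a1, Eif4e, Eif4g1, Eif4h, Eif5a and Eif5a2. Of these, Eif3f, Eif3k, Eif4e and Eif5a2 had no genotype call, and the others were called lower in KIKO activated cells. Members whose windows lacked CACGTG were also called lower there, among them Eif2s1, Eif3b and Eif4a3. TGATGNAA, the element bound by ATF4 with CEBP partners, searched on both strands, was in the window of 1 of the 40 members, Eif2s3x, and in 3.97% of all windows. A start at C followed by at least 4 pyrimidines was in 2 members, Eif3f and Eif2s3x, and in 2.51% of all windows. Myc, which encodes one of the factors that bind the E-box and was named after its values were seen, stood at 34.4, 44.2 and 27.6 FPKM in KIKO activated libraries, against 85.3, 99.0 and 118 FPKM in KI activated libraries. A link of the E-box or of Myc to the levels of the members was not tested.

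The genes named for eIF1 and eIF1A were lower in KIKO activated cells for 4 of 5, and Eif1 went the other way. Eif1ad is counted here by its name and not as a known scanning factor. Over all loci tested, 19.3% were called lower. eIF1 keeps the scanning ribosome open at wrong codons, and eIF1A, made from Eif1a and Eif1ax in the mouse, helps it scan. Eif1a stood at 14.2, 17.4 and 12.6 FPKM in KIKO activated libraries, against 21.4, 26.4 and 26.6 FPKM in KI activated libraries. Naive Eif1a levels were 6.46, 6.31 and 6.37 FPKM in KIKO naive libraries and 6.24, 5.63 and 6.90 FPKM in KI naive libraries. The activated groups did not overlap, the KIKO mean was 0.595 of the KI mean, and the difference was -0.72 ± 0.13 on the log2 scale (SE), limma adjusted p = 0.000873. On activation Eif1a was higher by 1.08 in KIKO and 1.82 in KI, an interaction of -0.75 ± 0.18 on the log2 scale (SE), limma adjusted p = 0.0135. Its X-linked partner Eif1ax stood at 13.8, 14.8 and 12.7 FPKM in KIKO activated libraries, against 17.0, 18.4 and 21.7 FPKM in KI activated libraries. Naive Eif1ax levels were 9.38, 9.81 and 8.91 FPKM in KIKO naive libraries and 7.98, 8.16 and 8.33 FPKM in KI naive libraries. Every activated library was above every naive one, the KI activated libraries were the highest, and the interaction was -0.62 ± 0.15 on the log2 scale (SE), limma adjusted p = 0.012. Eif1b, a close relative of Eif1, had 30.9, 26.9 and 26.8 FPKM in KIKO activated libraries, against 38.0, 41.6 and 38.3 FPKM in KI activated libraries. Naive Eif1b levels were 26.0, 21.4 and 24.1 FPKM in KIKO naive libraries and 22.8, 25.1 and 27.7 FPKM in KI naive libraries. Eif1ad, the gene of an eIF1A domain protein, had 20.2, 19.0 and 16.5 FPKM in KIKO activated libraries, against 25.0, 29.2 and 27.8 FPKM in KI activated libraries. Naive Eif1ad levels were 16.2, 16.4 and 15.5 FPKM in KIKO naive libraries and 17.3, 16.2 and 19.1 FPKM in KI naive libraries. Both were lower in all 3 KIKO activated libraries than in any KI activated one, by -0.47 ± 0.10 on the log2 scale (SE), limma adjusted p = 0.00358 for Eif1b and -0.54 ± 0.10 on the log2 scale (SE), limma adjusted p = 0.00124 for Eif1ad, and neither was called on activation in KIKO. Neither interaction was called, at -0.39 for Eif1b (limma adjusted p = 0.0797) and -0.42 for Eif1ad (limma adjusted p = 0.0577). Eif1 itself had 234, 249.8 and 215 FPKM in KIKO activated libraries, against 159, 158 and 181 FPKM in KI activated libraries. Naive Eif1 levels were 176, 192 and 189.6 FPKM in KIKO naive libraries and 152, 161 and 172 FPKM in KI naive libraries. It was higher in every KIKO activated library than in any KI activated one (0.49 ± 0.09 on the log2 scale (SE), limma adjusted p = 0.00114), and it was called higher on activation in KIKO (0.32), a call lost without KIKO activated 2 (0.27, limma adjusted p = 0.0503). In KI its difference on activation was 0.04 (limma adjusted p = 0.737).

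eIF2 has an alpha, a beta and a gamma subunit, encoded by Eif2s1, Eif2s2 and, on the X chromosome, Eif2s3x. On activation Eif2s1 and Eif2s2 rose in KIKO, and all 3 rose in KI. Eif2s1, whose product carries the serine that the stress kinases phosphorylate, stood at 41.5, 43.6 and 32.8 FPKM in KIKO activated libraries, against 61.0, 75.5 and 76.7 FPKM in KI activated libraries. Naive Eif2s1 levels were 23.0, 20.6 and 22.9 FPKM in KIKO naive libraries and 23.3, 22.3 and 23.2 FPKM in KI naive libraries. The naive groups overlapped and the activated groups did not, and the difference in activated cells was -0.84 ± 0.12 on the log2 scale (SE), limma adjusted p = 0.000182. It was 1.77 times its naive level in KIKO activated cells and 3.10 times in KI activated cells, with an interaction of -0.79 ± 0.17 on the log2 scale (SE), limma adjusted p = 0.00698. Eif2s2, the beta subunit gene, had 107, 124 and 88.0 FPKM in KIKO activated libraries, against 81.1, 94.3 and 99.95 FPKM in KI activated libraries. Naive Eif2s2 levels were 42.1, 49.0 and 41.8 FPKM in KIKO naive libraries and 33.7, 31.6 and 34.2 FPKM in KI naive libraries. Its activated groups overlapped, the difference between them was 0.20 ± 0.12 on the log2 scale (SE), limma adjusted p = 0.228, and its response was 1.23 in KIKO and 1.44 in KI, with an interaction of -0.20 ± 0.18 on the log2 scale (SE), limma adjusted p = 0.457. Eif2s3x had 38.2, 41.2 and 35.1 FPKM in KIKO activated libraries, against 48.9, 55.4 and 96.2 FPKM in KI activated libraries. Naive Eif2s3x levels were 26.2, 22.2 and 27.8 FPKM in KIKO naive libraries and 22.5, 23.3 and 36.2 FPKM in KI naive libraries. KI replicate 3 was the highest library in both KI groups, and these are the libraries that listed no Y-linked gene. The locus listed as Gm29650, which shares 9 of its 14 introns with the Y-linked copy Eif2s3y, had 34.4, 36.8 and 38.6 FPKM in KIKO activated libraries, against 27.6, 28.5 and 0 FPKM in KI activated libraries. Its naive levels were 34.9, 43.4 and 38.4 FPKM in KIKO naive libraries and 28.2, 33.2 and 0 FPKM in KI naive libraries. Its 0 values were in the same 2 libraries. Eif2s3x was called lower in KIKO activated cells (-0.73 ± 0.23 on the log2 scale (SE), limma adjusted p = 0.0241), and the call was lost without any 1 of KI activated 3, KIKO activated 1 or KIKO activated 3 (-0.73 to -0.44, limma adjusted p 0.0568 to 0.0943).

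The other initiator tRNA carriers, eIF2A and eIF2D, act outside the eIF2 route. Eif2a had 12.6, 13.6 and 11.5 FPKM in KIKO activated libraries, against 16.4, 20.5 and 20.6 FPKM in KI activated libraries. Naive Eif2a levels were 10.6, 11.1 and 9.70 FPKM in KIKO naive libraries and 11.4, 8.14 and 10.6 FPKM in KI naive libraries. The KIKO activated libraries were all below the KI activated ones (-0.57 ± 0.13 on the log2 scale (SE), limma adjusted p = 0.00471), and its response was 0.24 in KIKO and 0.87 in KI. Its interaction of -0.63 (limma adjusted p = 0.0329) was lost without any 1 of KI naive 2, KI activated 2, KI activated 3, KIKO naive 1, KIKO naive 2, KIKO activated 1 or KIKO activated 3 (-0.63 to -0.50, limma adjusted p 0.0583 to 0.0821). Eif2d ranged from 7.42 to 20.5 FPKM over the 12 libraries and was called higher on activation in both genotypes, by 0.72 in KIKO and 0.71 in KI.

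The eIF2B genes, whose product exchanges GDP for GTP on eIF2, were lower in KIKO activated cells for 3 of 5 subunits. Over all loci tested, 19.3% were called lower there. Eif2b1, a subunit of the regulatory part that binds phosphorylated eIF2, had 10.5, 11.9 and 9.76 FPKM in KIKO activated libraries, against 16.2, 17.8 and 19.1 FPKM in KI activated libraries. Naive Eif2b1 levels were 7.89, 8.71 and 8.50 FPKM in KIKO naive libraries and 7.89, 7.58 and 6.36 FPKM in KI naive libraries. The activated groups did not overlap, with a KIKO mean 0.605 of the KI mean (-0.68 ± 0.11 on the log2 scale (SE), limma adjusted p = 0.000475), and the interaction was -0.86 ± 0.16 on the log2 scale (SE), limma adjusted p = 0.0031. Its response in KIKO was 0.32 (limma adjusted p = 0.0301), a call lost without any 1 of KIKO naive 1, KIKO naive 3, KIKO activated 1 or KIKO activated 2 (0.25 to 0.33, limma adjusted p 0.0574 to 0.119). Eif2b3, the gamma subunit, had 11.8, 12.2 and 9.31 FPKM in KIKO activated libraries, against 17.8, 17.5 and 21.9 FPKM in KI activated libraries. Naive Eif2b3 levels were 4.96, 6.35 and 4.89 FPKM in KIKO naive libraries and 3.70, 4.96 and 5.30 FPKM in KI naive libraries. It showed the largest response of the 5 in KI, 1.83 against 0.92 in KIKO, and the interaction was -0.92 ± 0.21 on the log2 scale (SE), limma adjusted p = 0.0113. Eif2b5, the catalytic epsilon subunit, had 37.0, 40.4 and 32.9 FPKM in KIKO activated libraries, against 44.2, 51.5 and 56.5 FPKM in KI activated libraries. Naive Eif2b5 levels were 22.9, 24.6 and 21.4 FPKM in KIKO naive libraries and 22.9, 20.1 and 20.4 FPKM in KI naive libraries. It was lower in KIKO activated cells by -0.45 ± 0.11 on the log2 scale (SE), limma adjusted p = 0.00668, with no overlap of the groups, and its interaction of -0.57 (limma adjusted p = 0.025) was lost without any 1 of KI naive 2, KI naive 3, KI activated 2, KI activated 3, KIKO activated 1 or KIKO activated 3 (-0.57 to -0.49, limma adjusted p 0.0501 to 0.0654). Eif2b2 and Eif2b4 differed between the activated groups by 0.15 and -0.07 and were not called there (limma adjusted p = 0.33 and 0.775). In KIKO activated 3 the main start of Eif2b4 had 34.5 FPKM and its end 19.4. That end had 23.5, 25.3 and 19.4 FPKM in KIKO activated libraries, against 26.5, 27.7 and 28.0 FPKM in KI activated libraries. Ends alone were not tested. On activation Eif2b2 was called higher in both genotypes. Eif2b4 was called higher in KI, and its interaction was not called (-0.59 ± 0.23 on the log2 scale (SE), limma adjusted p = 0.0873).

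Of the 4 eIF2 kinase genes, 2 were higher in KIKO activated cells and the other 2 were not called. Over all loci tested, 20.7% were called higher there. Eif2ak3 encodes PERK, which senses unfolded protein in the endoplasmic reticulum. It had 7.19, 6.88 and 8.01 FPKM in KIKO activated libraries, against 5.71, 4.92 and 4.77 FPKM in KI activated libraries. Naive Eif2ak3 levels were 10.2, 9.06 and 11.3 FPKM in KIKO naive libraries and 11.8, 11.5 and 10.8 FPKM in KI naive libraries. Every naive library was above every activated one, and the KI activated libraries were the lowest. On activation Eif2ak3 changed by -0.42 ± 0.11 on the log2 scale (SE), limma adjusted p = 0.00771 in KIKO, and by -1.01 ± 0.11 on the log2 scale (SE), limma adjusted p = 7.28e-06 in KI. It was higher in KIKO activated than in KI activated cells (0.45 ± 0.11 on the log2 scale (SE), limma adjusted p = 0.00644). Its interaction was 0.59 ± 0.16 on the log2 scale (SE), limma adjusted p = 0.0193, a call lost without both KI libraries numbered 3 (0.59, limma adjusted p = 0.0601). Eif2ak2 encodes PKR, the kinase activated by double-stranded RNA and induced by interferon. It had 3.39, 3.34 and 4.42 FPKM in KIKO activated libraries, against 1.73, 1.68 and 1.75 FPKM in KI activated libraries. Naive Eif2ak2 levels were 3.19, 1.80 and 3.58 FPKM in KIKO naive libraries and 2.32, 2.52 and 2.21 FPKM in KI naive libraries. All 3 KIKO activated libraries were above all 3 KI activated ones, a 2.16-fold ratio of means (0.79 ± 0.18 on the log2 scale (SE), limma adjusted p = 0.00499). The naive groups overlapped, and the interaction was 0.61 ± 0.26 on the log2 scale (SE), limma adjusted p = 0.119. Eif2ak1, the heme-regulated kinase, had 14.4 to 20.0 FPKM over the 12 libraries, and Eif2ak4, which encodes the amino acid sensor GCN2, had 2.00 to 6.15 FPKM. Neither was called between genotypes, and Eif2ak1 was called higher on activation in KI (0.33 ± 0.09 on the log2 scale (SE), limma adjusted p = 0.00727), a call lost with equal sums (0.19, limma adjusted p = 0.0825).

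**Figure D3:**
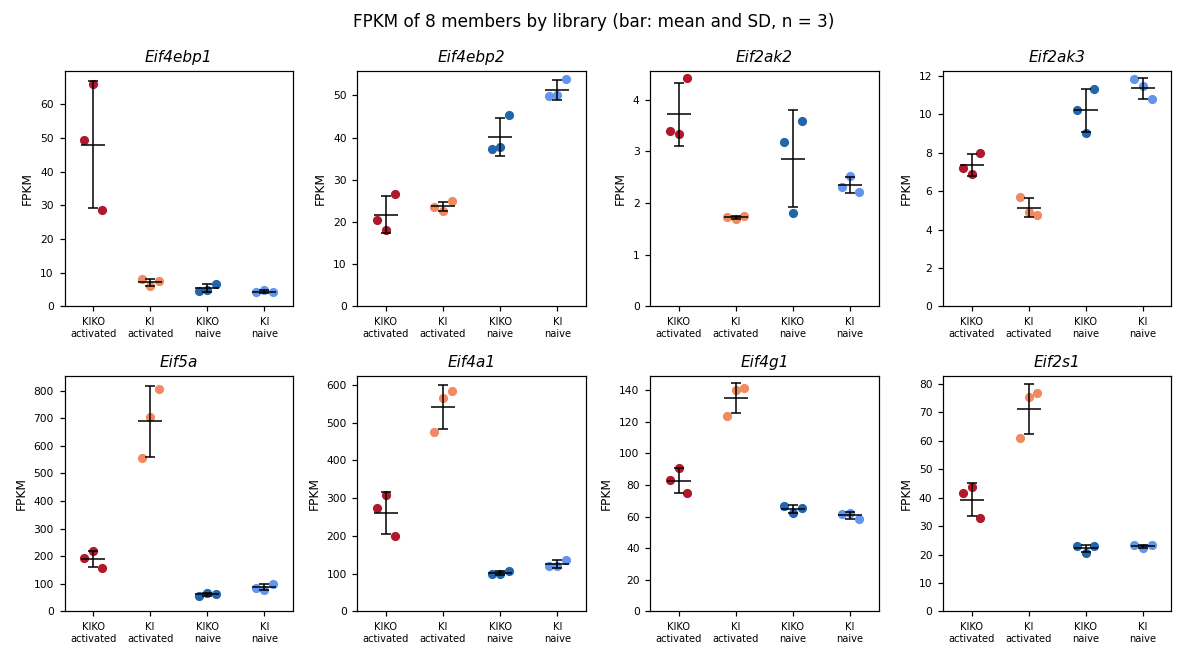
FPKM of 8 initiation factor genes in each library, with the mean and SD of each group (n = 3). Eif4ebp1 is high in the KIKO activated libraries alone, at 28.5 to 66.0 FPKM, and the mean of Eif2ak2 is highest there, while Eif5a, Eif4a1, Eif4g1 and Eif2s1 are highest in KI activated libraries.

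eIF3, the largest initiation factor, had 12 subunit genes listed. On activation 6 of them were called higher and 1 lower in KIKO, and 8 were called higher in KI. Calls in either direction took 58.3% of them in KIKO and 66.7% in KI. Over all loci tested these shares were 47.3% and 61.7%, with 25.1% called higher in KIKO and 32.2% in KI. Eif3b, which encodes a scaffold subunit of the core, stood at 115, 130.2 and 93.8 FPKM in KIKO activated libraries, against 171, 196 and 212 FPKM in KI activated libraries. Naive Eif3b levels were 57.2, 57.7 and 59.4 FPKM in KIKO naive libraries and 51.0, 49.0 and 51.3 FPKM in KI naive libraries. No groups overlapped, and the mean was 113 ± 18.3 FPKM in KIKO activated and 193 ± 20.7 FPKM in KI activated cells (SD, n = 3 each), a difference of -0.77 ± 0.12 on the log2 scale (SE), limma adjusted p = 0.000265. Its response was 0.94 in KIKO and 1.91 in KI, with an interaction of -0.98 ± 0.16 on the log2 scale (SE), limma adjusted p = 0.00211. Eif3a, the other scaffold of the core, had 149.8, 152 and 147 FPKM in KIKO activated libraries, against 204, 226 and 231 FPKM in KI activated libraries. Naive Eif3a levels were 109.8, 106 and 112 FPKM in KIKO naive libraries and 88.5, 96.1 and 97.7 FPKM in KI naive libraries. The KIKO activated libraries lay within a few FPKM of each other and below every KI activated one (-0.55 ± 0.08 on the log2 scale (SE), limma adjusted p = 0.000191), and the interaction was -0.77 ± 0.11 on the log2 scale (SE), limma adjusted p = 0.00102. Eif3i had 161, 156 and 136 FPKM in KIKO activated libraries, against 260.3, 262 and 295 FPKM in KI activated libraries. Naive Eif3i levels were 87.8, 115 and 91.9 FPKM in KIKO naive libraries and 98.8, 96.1 and 103 FPKM in KI naive libraries. It had the largest genotype difference of the eIF3 genes in activated cells (-0.85 ± 0.11 on the log2 scale (SE), limma adjusted p = 0.0001) and an interaction of -0.82 ± 0.16 on the log2 scale (SE), limma adjusted p = 0.00398. Eif3g, which encodes another subunit shared with yeast, had 273, 264 and 217 FPKM in KIKO activated libraries, against 311, 328 and 329 FPKM in KI activated libraries. Naive Eif3g levels were 171, 159 and 185 FPKM in KIKO naive libraries and 148, 153 and 164 FPKM in KI naive libraries. Its KIKO activated libraries were all below the KI activated ones (-0.37 ± 0.10 on the log2 scale (SE), limma adjusted p = 0.0121), a call lost with equal sums (-0.23, limma adjusted p = 0.0567) and with quantile normalization (-0.11, limma adjusted p = 0.3). Its interaction of -0.51 (limma adjusted p = 0.0248) was lost without any 1 of KI naive 1, KI naive 2, KI activated 2, KI activated 3 or KIKO naive 3 (-0.51 to -0.46, limma adjusted p 0.0553 to 0.0609).

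Among the other eIF3 genes, Eif3l had 114, 125 and 99.9 FPKM in KIKO activated libraries, against 144, 156 and 166 FPKM in KI activated libraries. Naive Eif3l levels were 78.1, 73.2 and 77.2 FPKM in KIKO naive libraries and 64.1, 64.4 and 76.7 FPKM in KI naive libraries. The activated groups did not overlap, with a difference of -0.46 ± 0.10 on the log2 scale (SE), limma adjusted p = 0.00389 and an interaction of -0.62 ± 0.15 on the log2 scale (SE), limma adjusted p = 0.012. Eif3j1, whose product binds the complex loosely, had 18.9, 20.4 and 17.3 FPKM in KIKO activated libraries, against 23.3, 29.2 and 31.3 FPKM in KI activated libraries. Naive Eif3j1 levels were 12.1, 19.6 and 12.4 FPKM in KIKO naive libraries and 13.0, 12.2 and 11.1 FPKM in KI naive libraries. KIKO naive 2 stood apart from the other naive libraries, and the activated groups did not overlap (-0.53 ± 0.17 on the log2 scale (SE), limma adjusted p = 0.0233), though the call was lost without any 1 of KI activated 2, KI activated 3, KIKO activated 1 or KIKO activated 3 (-0.54 to -0.45, limma adjusted p 0.0553 to 0.0916). Its interaction of -0.76 (limma adjusted p = 0.0386) was lost without any 1 of KI naive 1, KI naive 2, KI naive 3, KI activated 2, KI activated 3, KIKO activated 1 or KIKO activated 3 (-0.81 to -0.68, limma adjusted p 0.0547 to 0.0967). Eif3m had 138, 131 and 106 FPKM in KIKO activated libraries, against 137, 145 and 169 FPKM in KI activated libraries. Naive Eif3m levels were 116, 156 and 127 FPKM in KIKO naive libraries and 89.8, 94.5 and 118 FPKM in KI naive libraries. The activated groups overlapped, the response was -0.08 in KIKO and 0.58 in KI, and the interaction of -0.66 (limma adjusted p = 0.0415) was lost without any 1 of KI naive 1, KI naive 2, KI activated 2, KI activated 3, KIKO naive 2, KIKO naive 3 or KIKO activated 3 (-0.69 to -0.54, limma adjusted p 0.0605 to 0.103). Eif3d, whose product can bind the cap itself in human cells, had 241, 255 and 214 FPKM in KIKO activated libraries, against 226, 246 and 262 FPKM in KI activated libraries. Naive Eif3d levels were 143, 130.3 and 151 FPKM in KIKO naive libraries and 107, 104 and 117 FPKM in KI naive libraries. It rose in both genotypes, by 0.74 in KIKO and 1.15 in KI. In naive cells it was higher in KIKO (0.37 ± 0.10 on the log2 scale (SE), limma adjusted p = 0.0335), a call lost without any 1 of KI naive 1, KI naive 2, KI activated 2, KIKO naive 1, KIKO naive 3 or KIKO activated 1 (0.32 to 0.37, limma adjusted p 0.0524 to 0.111).

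Eif3e, Eif3f, Eif3h and Eif3k were the 4 subunit genes not called higher on activation in either genotype. They are grouped here after their values were seen. Eif3e had 271, 238 and 282 FPKM in KIKO activated libraries, against 247, 248 and 273 FPKM in KI activated libraries. Naive Eif3e levels were 340.1, 374 and 369 FPKM in KIKO naive libraries and 233, 246 and 322 FPKM in KI naive libraries. The KIKO naive libraries were above all others. Among naive cells Eif3e was higher in KIKO (0.45 ± 0.12 on the log2 scale (SE), limma adjusted p = 0.0371), a call lost without any 1 of KI naive 1, KI naive 2, KI activated 2, KIKO naive 1, KIKO naive 2, KIKO naive 3 or KIKO activated 1 (0.36 to 0.49, limma adjusted p 0.0553 to 0.134). It fell on activation in KIKO (-0.45 ± 0.12 on the log2 scale (SE), limma adjusted p = 0.00878). No change was called in KI (-0.05 ± 0.12 on the log2 scale (SE), limma adjusted p = 0.766). The fall in KIKO was lost without both KIKO libraries numbered 2 (-0.36, limma adjusted p = 0.082). Eif3h had 215 to 296 FPKM over the 12 libraries, and it differed on activation by -0.17 ± 0.10 on the log2 scale (SE), limma adjusted p = 0.185 in KIKO and -0.20 ± 0.10 on the log2 scale (SE), limma adjusted p = 0.105 in KI. Eif3f had 101 to 198 FPKM, and in KIKO activated 2 and KI activated 3 its summed starts, at 197 and 195 FPKM, stood far above its summed ends, at 69.0 and 63.7 FPKM. Eif3k had 152 to 245 FPKM and differed on activation by 0.01 in KIKO and 0.29 in KI. When KIKO naive 2 was left out, Eif3k was called higher on activation in KI and lower in KIKO activated than in KI activated cells.

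**Figure D4:**
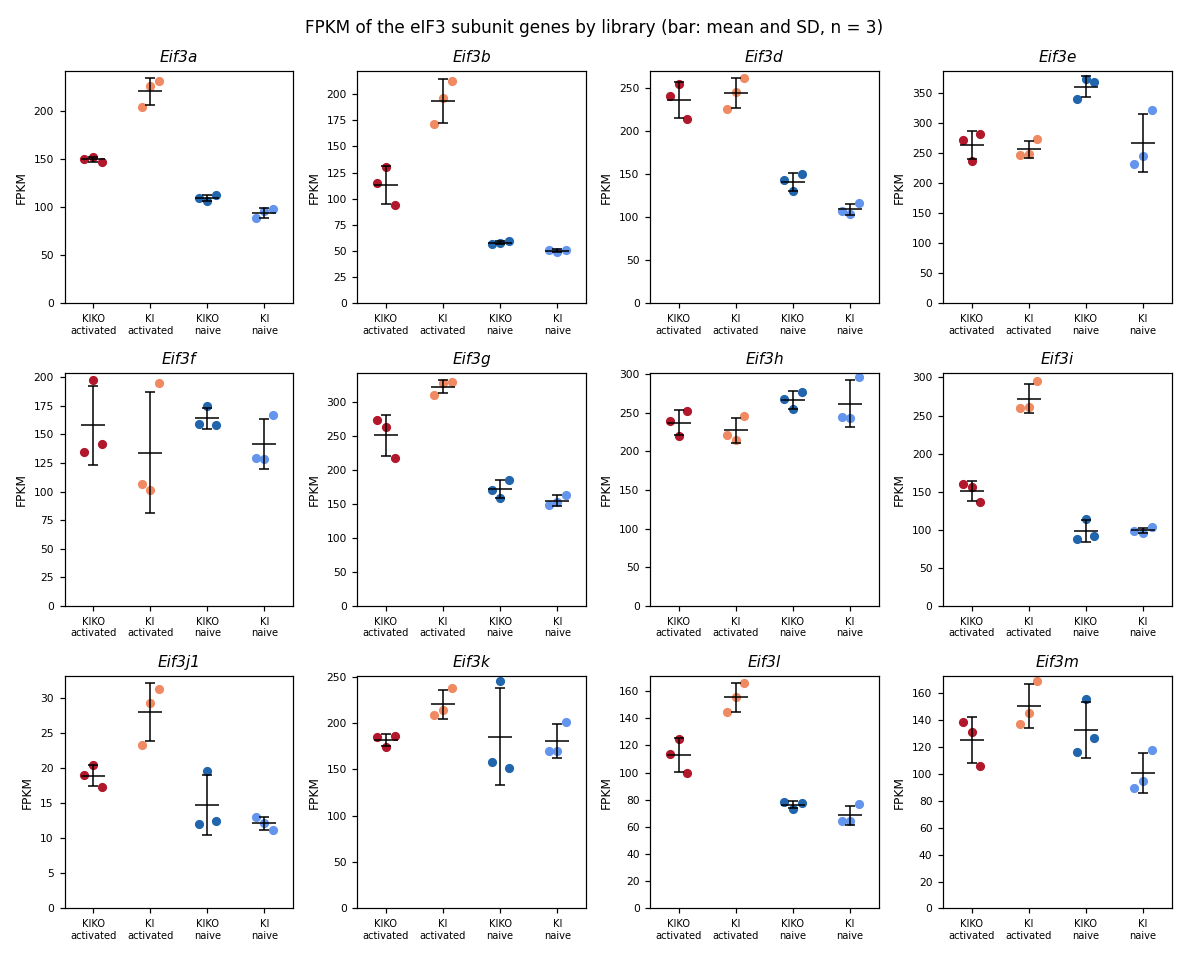
FPKM of the 12 listed eIF3 subunit genes in each library, with the mean and SD of each group (n = 3). For Eif3a, Eif3b, Eif3g, Eif3i, Eif3j1, Eif3k and Eif3l the KI activated libraries stand above the KIKO activated ones. The difference was called in 6 of 12 genes, these without Eif3k, and in 19.3% of all loci. Eif3e is highest in KIKO naive libraries.

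The members among the cap-binding proteins, the eIF4A-type helicases and their cofactors numbered 8, Eif4a3 of the exon junction complex among them. Of these, 6 of 8 were lower in KIKO activated than in KI activated cells, and all 8 were higher in KI activated than in KI naive cells. Over all loci tested, 19.3% were called lower in the first comparison and 32.2% higher in the second. The locus listed as Gm24616, which is not a member by name and holds introns of the helicase gene Eif4a2, was lower in KI activated than in KI naive cells (-0.40 ± 0.12 on the log2 scale (SE), limma adjusted p = 0.0105). Eif4a1, the DEAD-box helicase that unwinds the mRNA leader, stood at 273, 309 and 199.5 FPKM in KIKO activated libraries, against 475, 565 and 582 FPKM in KI activated libraries. Naive Eif4a1 levels were 99.98, 99.6 and 108 FPKM in KIKO naive libraries and 119.7, 119.9 and 137 FPKM in KI naive libraries. The mean was 260.5 ± 55.8 FPKM in KIKO activated and 541 ± 57.4 FPKM in KI activated cells (SD, n = 3 each), a ratio of 0.482, with no overlap (-1.07 ± 0.14 on the log2 scale (SE), limma adjusted p = 0.000129). It rose 2.54-fold on activation in KIKO and 4.30-fold in KI, and the interaction of -0.78 (limma adjusted p = 0.0191) was lost without KI activated 3 (-0.72, limma adjusted p = 0.0505). Eif4g1, the scaffold that holds the cap-binding protein, the helicase and eIF3 together, had 82.8, 90.6 and 74.6 FPKM in KIKO activated libraries, against 124, 139.9 and 141 FPKM in KI activated libraries. Naive Eif4g1 levels were 66.8, 62.1 and 65.5 FPKM in KIKO naive libraries and 61.9, 62.1 and 58.4 FPKM in KI naive libraries. The naive groups overlapped, the KIKO activated libraries stood between them and the KI activated ones, and the difference in activated cells was -0.70 ± 0.09 on the log2 scale (SE), limma adjusted p = 9.40e-05. The interaction was -0.79 ± 0.13 on the log2 scale (SE), limma adjusted p = 0.00175. Its relative Eif4g3 had 29.6, 32.3 and 32.1 FPKM in KIKO activated libraries, against 37.1, 38.6 and 37.0 FPKM in KI activated libraries. Naive Eif4g3 levels were 30.4, 25.8 and 30.8 FPKM in KIKO naive libraries and 32.3, 30.1 and 28.1 FPKM in KI naive libraries. Its difference in activated cells was small (-0.25 ± 0.09 on the log2 scale (SE), limma adjusted p = 0.0433), and the call was lost without any 1 of KI naive 2, KI activated 1, KI activated 2, KI activated 3, KIKO naive 1, KIKO activated 1, KIKO activated 2 or KIKO activated 3 (-0.28 to -0.21, limma adjusted p 0.0524 to 0.145).

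Eif4a3, a helicase of the exon junction complex rather than of the cap complex, had 81.6, 83.8 and 74.5 FPKM in KIKO activated libraries, against 112, 122 and 126 FPKM in KI activated libraries. Naive Eif4a3 levels were 57.0, 52.3 and 56.2 FPKM in KIKO naive libraries and 60.4, 61.6 and 74.5 FPKM in KI naive libraries. It was lower in every KIKO activated library (-0.58 ± 0.10 on the log2 scale (SE), limma adjusted p = 0.000564) and its interaction was -0.34 ± 0.14 on the log2 scale (SE), limma adjusted p = 0.1. Eif4h, a cofactor of the helicase, had 68.5, 68.0 and 64.7 FPKM in KIKO activated libraries, against 75.2, 80.5 and 89.9 FPKM in KI activated libraries. Naive Eif4h levels were 58.6, 52.9 and 63.8 FPKM in KIKO naive libraries and 50.2, 45.0 and 56.0 FPKM in KI naive libraries. Its genotype call in activated cells (-0.28 ± 0.10 on the log2 scale (SE), limma adjusted p = 0.0499) was lost without any 1 of KI naive 1, KI activated 2, KI activated 3, KIKO naive 1, KIKO naive 3, KIKO activated 1, KIKO activated 2 or KIKO activated 3 (-0.30 to -0.21, limma adjusted p 0.0505 to 0.182). Its interaction of -0.49 (limma adjusted p = 0.0347) was lost without any 1 of KI naive 1, KI naive 2, KI activated 2, KI activated 3, KIKO naive 1, KIKO naive 3, KIKO activated 1 or KIKO activated 3 (-0.51 to -0.41, limma adjusted p 0.0605 to 0.0882). Eif4e2, the cap-binding relative that represses translation, had 59.5, 58.9 and 50.4 FPKM in KIKO activated libraries, against 79.1, 80.1 and 83.1 FPKM in KI activated libraries. Naive Eif4e2 levels were 41.6, 45.9 and 47.0 FPKM in KIKO naive libraries and 48.4, 49.1 and 51.0 FPKM in KI naive libraries. It was lower in KIKO activated cells by -0.52 ± 0.09 on the log2 scale (SE), limma adjusted p = 0.000563, and its interaction of -0.38 (limma adjusted p = 0.0465) was lost without any 1 of KI naive 1, KI naive 2, KI naive 3, KI activated 1, KI activated 2, KI activated 3, KIKO naive 2, KIKO naive 3, KIKO activated 1 or KIKO activated 3 (-0.42 to -0.30, limma adjusted p 0.0557 to 0.0997). The change lay in the start at chr1:87141661-87142217 (GRCm39, plus strand), which had 43.9, 46.6 and 40.7 FPKM in KIKO activated libraries, against 67.0, 69.2 and 71.4 FPKM in KI activated libraries, and 27.0 to 37.0 FPKM in naive ones. The start before it, at chr1:87141378-87141741, had 9.66 to 19.2 FPKM in all 12 libraries. Eif4b, which stimulates the helicase, ranged from 123 to 194 FPKM and was called higher on activation in KI (0.37 ± 0.09 on the log2 scale (SE), limma adjusted p = 0.00496). Eif4e, the cap-binding protein itself, had 35.3, 57.4 and 39.6 FPKM in KIKO activated libraries, against 53.1, 91.5 and 26.6 FPKM in KI activated libraries. Naive Eif4e levels were 22.4, 8.80 and 24.1 FPKM in KIKO naive libraries and 9.35, 21.6 and 25.2 FPKM in KI naive libraries. Its libraries spread too widely for a genotype call (-0.23 ± 0.47 on the log2 scale (SE), limma adjusted p = 0.739), and in KIKO naive 2 and KI naive 1 its summed starts were 0.797 and 2.24 FPKM where its summed ends were 8.80 and 9.35. On activation it was called higher by 1.30 in KIKO, a call lost without any 1 of KI activated 1, KIKO naive 2, KIKO activated 1, KIKO activated 2 or KIKO activated 3 (0.86 to 1.44, limma adjusted p 0.051 to 0.157). In KI it was called higher by 1.498, a call lost without any 1 of KI naive 1 or KI activated 2 (1.08 to 1.09, limma adjusted p 0.0744 to 0.0746).

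Eif4ebp1, which encodes the eIF4E-binding protein that mTOR inactivates, had the largest genotype difference of any member. It stood at 49.4, 66.0 and 28.5 FPKM in KIKO activated libraries, against 7.93, 5.86 and 7.44 FPKM in KI activated libraries. Naive Eif4ebp1 levels were 4.61, 4.78 and 6.72 FPKM in KIKO naive libraries and 4.18, 4.76 and 4.12 FPKM in KI naive libraries. The KIKO activated libraries were all above the other 9, which lay between 4.12 and 7.93 FPKM. The mean was 48.0 ± 18.8 FPKM in KIKO activated and 7.08 ± 1.08 FPKM in KI activated cells (SD, n = 3 each), a 6.78-fold ratio and a difference of 2.53 ± 0.24 on the log2 scale (SE), limma adjusted p = 1.11e-05. On activation it rose 8.93-fold in KIKO (2.88 ± 0.24 on the log2 scale (SE), limma adjusted p = 4.40e-06), and the difference in KI was 0.59 ± 0.24 on the log2 scale (SE), limma adjusted p = 0.0526. The interaction was 2.29 ± 0.34 on the log2 scale (SE), limma adjusted p = 0.0012. Under the 24 alternatives the interaction stayed between 1.96 and 2.62 and was called in each. The level came from 1 start event of 222 bases at chr8:27750357-27750578 (GRCm39, plus strand). A transcript end was listed in KIKO activated 2, at 1.59 FPKM, and in no other library.

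Eif4ebp2 encodes the other eIF4E-binding protein kept among the members, and it was lower in activated cells. It had 20.4, 18.1 and 26.6 FPKM in KIKO activated libraries, against 23.5, 22.6 and 24.9 FPKM in KI activated libraries. Naive Eif4ebp2 levels were 37.3, 37.6 and 45.3 FPKM in KIKO naive libraries and 49.8, 50.03 and 54.0 FPKM in KI naive libraries. Every naive library was above every activated one, the activated groups overlapped, and the fall on activation was -0.87 ± 0.13 on the log2 scale (SE), limma adjusted p = 0.000207 in KIKO and -1.08 ± 0.13 on the log2 scale (SE), limma adjusted p = 1.47e-05 in KI. No genotype difference was called, at -0.14 ± 0.13 on the log2 scale (SE), limma adjusted p = 0.428 in activated and -0.35 ± 0.13 on the log2 scale (SE), limma adjusted p = 0.101 in naive cells. Eif4enif1 encodes 4E-T, which carries eIF4E to the nucleus and to P-bodies. It had 41.5, 60.4 and 34.4 FPKM in KIKO activated libraries, against 64.9, 71.9 and 58.1 FPKM in KI activated libraries. Naive Eif4enif1 levels were 20.7, 21.1 and 19.8 FPKM in KIKO naive libraries and 22.6, 25.0 and 20.4 FPKM in KI naive libraries. The activated groups overlapped, since KIKO activated 2 was above KI activated 3, and the genotype call (-0.54 ± 0.17 on the log2 scale (SE), limma adjusted p = 0.0214) was lost without any 1 of KI activated 2, KIKO activated 1 or KIKO activated 3 (-0.49 to -0.36, limma adjusted p 0.0694 to 0.084). Its start at chr11:3151316-3152556 (GRCm39, plus strand) had 5.16, 5.62 and 1.21 FPKM in KIKO activated libraries, against 16.6, 17.4 and 13.0 FPKM in KI activated libraries, and no more than 3.04 FPKM in any naive one.

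Of the factors that act at or after the start codon, Eif5a changed most. eIF5A, which carries the modified amino acid hypusine, helps ribosomes through difficult stretches and at termination. Eif5a stood at 194, 219 and 158 FPKM in KIKO activated libraries, against 554, 703 and 807 FPKM in KI activated libraries. Naive Eif5a levels were 55.8, 67.2 and 64.7 FPKM in KIKO naive libraries and 86.8, 77.3 and 98.6 FPKM in KI naive libraries. The 4 groups did not overlap, and KI activated libraries were the highest. The mean was 190.2 ± 30.5 FPKM in KIKO activated and 688 ± 127 FPKM in KI activated cells (SD, n = 3 each), a ratio of 0.276 (-1.85 ± 0.16 on the log2 scale (SE), limma adjusted p = 4.61e-06). It rose 3.04-fold on activation in KIKO and 7.86-fold in KI, the largest rise of any member in KI, and the interaction was -1.37 ± 0.22 on the log2 scale (SE), limma adjusted p = 0.00173. In naive cells the KIKO libraries were also below the KI ones, by a difference that was not called (-0.48 ± 0.16 on the log2 scale (SE), limma adjusted p = 0.0736). Nearly all of the start signal came from chr11:69811989-69812212 (GRCm39, minus strand), with 184, 213 and 149 FPKM in KIKO activated libraries, against 535, 689 and 794 FPKM in KI activated libraries.

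Eif5b, the GTPase that joins the ribosomal subunits, had 46.7, 50.8 and 43.8 FPKM in KIKO activated libraries, against 59.5, 72.0 and 68.6 FPKM in KI activated libraries. Naive Eif5b levels were 26.9, 34.0 and 28.2 FPKM in KIKO naive libraries and 23.9, 28.2 and 28.4 FPKM in KI naive libraries. The activated groups did not overlap (-0.49 ± 0.11 on the log2 scale (SE), limma adjusted p = 0.00489), and its interaction of -0.63 (limma adjusted p = 0.0183) was lost without KI activated 2 (-0.57, limma adjusted p = 0.0519). Eif5, which makes eIF2 split its GTP at the start codon, had 186, 207 and 165 FPKM in KIKO activated libraries, against 135, 148 and 104 FPKM in KI activated libraries. Naive Eif5 levels were 131, 136 and 92.2 FPKM in KIKO naive libraries and 84.9, 83.3 and 84.0 FPKM in KI naive libraries. It was higher in KIKO in both states without overlap. The difference was 0.54 ± 0.16 on the log2 scale (SE), limma adjusted p = 0.0181 in activated cells, a call lost without any 1 of KI activated 3 or KIKO activated 2 (0.39 to 0.46, limma adjusted p 0.0618 to 0.0845), and 0.48 ± 0.16 on the log2 scale (SE), limma adjusted p = 0.0738 in naive cells. Its response was 0.64 in KIKO and 0.59 in KI, so the interaction was near 0 (0.05 ± 0.23 on the log2 scale (SE), limma adjusted p = 0.904). Eif6, which keeps free large subunits apart from small ones, ranged from 38.9 to 110 FPKM and was called higher on activation by 0.81 in KIKO and 1.21 in KI, with no genotype call. Eif5a2, the tissue-restricted copy of Eif5a, stayed at 0.935 to 1.66 FPKM in all 12 libraries.

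Genes that work with the initiation factors were read from the same fit. Of 27 tested partners of initiation, 4 were higher and 6 lower in KIKO activated cells, counts near the 20.7% of all loci called higher and 19.3% called lower (limma). At an unadjusted p under 0.05, 4 were higher and 9 lower, a threshold at which all loci were not counted. The median log2 difference was -0.10. Impact, whose product binds GCN1 and so restrains GCN2, had the smallest p of these. It stood at 31.3, 40.9 and 27.3 FPKM in KIKO activated libraries, against 2.64, 3.50 and 3.11 FPKM in KI activated libraries. Naive Impact levels were 18.6, 17.3 and 17.1 FPKM in KIKO naive libraries and 5.97, 6.27 and 7.24 FPKM in KI naive libraries. KIKO libraries were above KI libraries in both states with no overlap, by 3.05 ± 0.14 on the log2 scale (SE), limma adjusted p = 1.08e-07 in activated and 1.32 ± 0.14 on the log2 scale (SE), limma adjusted p = 0.000163 in naive cells, and the interaction was 1.73 ± 0.20 on the log2 scale (SE), limma adjusted p = 0.00032. Pabpc4, a poly(A)-binding protein known from activated human T cells, had 30.0, 31.8 and 25.1 FPKM in KIKO activated libraries, against 54.5, 74.3 and 92.6 FPKM in KI activated libraries. Naive Pabpc4 levels were 15.4, 14.4 and 16.1 FPKM in KIKO naive libraries and 17.9, 16.6 and 15.6 FPKM in KI naive libraries. Every KIKO activated library was below every KI activated one (-1.29 ± 0.16 on the log2 scale (SE), limma adjusted p = 6.75e-05). Abce1, the ATPase that splits ribosomes for reuse, had 42.3, 46.3 and 36.0 FPKM in KIKO activated libraries, against 68.9, 82.5 and 78.9 FPKM in KI activated libraries, and its difference was -0.87 ± 0.11 on the log2 scale (SE), limma adjusted p = 0.000106.

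Of 15 tested elongation and release factors, 0 were higher and 7 lower in KIKO activated cells (limma). Over all loci tested, 20.7% were called higher and 19.3% lower. The median log2 difference of these factors was -0.21, against 0.04 over all loci. At an unadjusted p under 0.05 the counts were also 0 higher and 7 lower, and all loci were not counted there. The interaction was called lower for 5, and for 11.6% of all loci tested. The release factor Etf1 had 50.6, 54.9 and 40.7 FPKM in KIKO activated libraries, against 69.9, 78.5 and 86.7 FPKM in KI activated libraries, a difference of -0.68 ± 0.11 on the log2 scale (SE), limma adjusted p = 0.000553. The mitochondrial elongation factor Tufm had 49.9, 56.0 and 45.8 FPKM in KIKO activated libraries, against 71.9, 88.2 and 88.3 FPKM in KI activated libraries, a difference of -0.70 ± 0.12 on the log2 scale (SE), limma adjusted p = 0.000568. Both were lower in all 3 KIKO activated libraries.

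The integrated stress response is the program that follows eIF2 phosphorylation through ATF4, and 13 of its targets were tested. 2 of them are left out of the counts. The locus listed as Atf4 shares 0 of its 11 introns with that gene and 8 with Mief1. Of the 7 lengths of its start and end exons, 3 match Atf4, so its level may mix both genes. Slc7a11 passed the filter on low values through the KIKO activated libraries alone. Of the other 11, 8 were higher and 0 lower in KIKO activated cells (limma). At an unadjusted p under 0.05 the counts were also 8 and 0, and all loci were not counted there. Over all loci tested, 20.7% were called higher and 19.3% lower. The median log2 difference of the 11 genes was 1.47, against 0.04 over all loci. The interaction was called higher for 8 of them, and for 8.99% of all loci. In naive cells 1 gene, Phgdh, was called, as lower in KIKO. Trib3, a pseudokinase gene induced by ATF4, had 18.7, 24.6 and 14.9 FPKM in KIKO activated libraries, against 1.61, 0.966 and 1.62 FPKM in KI activated libraries. Naive Trib3 levels were 14.3, 15.4 and 15.0 FPKM in KIKO naive libraries and 16.3, 16.3 and 18.9 FPKM in KI naive libraries. It was low in KI activated libraries alone, with a difference in activated cells of 3.08 ± 0.17 on the log2 scale (SE), limma adjusted p = 2.36e-07 and an interaction of 3.26 ± 0.23 on the log2 scale (SE), limma adjusted p = 2.85e-05. Sesn2, which encodes a leucine sensor that restrains mTORC1, had 38.6, 50.8 and 24.6 FPKM in KIKO activated libraries, against 4.61, 4.11 and 2.64 FPKM in KI activated libraries. Naive Sesn2 levels were 1.78, 4.53 and 1.87 FPKM in KIKO naive libraries and 2.06, 2.00 and 1.84 FPKM in KI naive libraries. KIKO activated libraries stood above the other 9 (2.99 ± 0.29 on the log2 scale (SE), limma adjusted p = 1.26e-05). Slc3a2, the heavy chain of large amino acid transporters, had 196, 259.9 and 141 FPKM in KIKO activated libraries, against 69.4, 61.8 and 58.7 FPKM in KI activated libraries. Naive Slc3a2 levels were 30.5, 28.8 and 31.2 FPKM in KIKO naive libraries and 31.0, 32.8 and 30.6 FPKM in KI naive libraries. It rose in both genotypes, with an interaction of 1.66 ± 0.24 on the log2 scale (SE), limma adjusted p = 0.000972 and a difference in activated cells of 1.60 ± 0.17 on the log2 scale (SE), limma adjusted p = 2.11e-05. Eif4ebp1 is itself known as an ATF4 target in other mouse cells, and it was not in this list.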

How the data were processed

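The deposited files hold FPKM of transcript events (starts, ends, exons, introns), which the authors calculated before deposit by a program not given in the sources used here. Per the labels' protocols, poly(A) RNA was made into stranded libraries. The submitters' processing notes name HISAT2 2.2.0, cutadapt 2.9 and FastQC 0.11.9, along with the builds GRCm39 and mm10. The coordinates of the files are GRCm39. FPKM keep no read counts, so the depth behind each value is unknown. A library listed 85319 to 112679 event lines, and events at 0 are not listed. Reads of overlapping genes may be shared.

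Repeated event lines were dropped, and where a symbol had several loci the one of highest mean level carried it. log2(FPKM + 1) was fitted with limma 3.58.1 in R 4.3.3 over all 9743 loci tested, with a mean for each of the 4 groups, an intensity trend, two-sided tests and Benjamini-Hochberg adjustment over all loci in each of 5 comparisons. A log2 difference on this scale understates the change of low genes. A locus was called at an adjusted p under 0.05. The fit was tested on simulated data. Gene identity was checked by intron and exon lengths against GENCODE M21. Loci were set aside by introns alone, so members with 0 introns to compare, Eif4ebp1 among them, could not be set aside. For Eif4ebp1, 1 of 2 lengths of its start and end exons matched. The members and lists were chosen with earlier results of these data known. Library values are given for members called between genotypes or in the interaction and for the 3 largest changes each way on activation. Other lists are named by up to 3 members of smallest p. Alternatives changed the pseudocount, filter, scaling, variance model, level of a locus, replicate block and libraries. Leaving out a pair of libraries that stood apart was chosen after seeing the data.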

Additional observations from a re-analysis of the deposited data

Results flagged for a closer look

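The response to activation differed between KIKO and KI by the limma interaction test for 22 initiation factor genes, each flagged because its effect under the same contrast was not the same size in the 2 genotypes. The values are the activated minus naive difference in KIKO less that in KI, on the log2(FPKM + 1) scale, and the libraries behind them are given above. The response was smaller in KIKO by more than 0.7 for 11 genes, with values of -1.37 for Eif5a, -0.98 for Eif3b, -0.92 for Eif2b3, -0.86 for Eif2b1, -0.82 for Eif3i, -0.79 for Eif2s1, -0.79 for Eif4g1, -0.78 for Eif4a1, -0.77 for Eif3a, -0.76 for Eif3j1 and -0.75 for Eif1a. It was smaller by less for Eif3m at -0.66, Eif2a at -0.63, Eif5b at -0.63, Eif3l at -0.62, Eif1ax at -0.62, Eif2b5 at -0.57, Eif3g at -0.51, Eif4h at -0.49 and Eif4e2 at -0.38. Eif2ak3 fell less in KIKO, at 0.59, and Eif4ebp1 had the largest value of all, 2.29. The interaction was called in each of the 24 alternatives for 12 of the 22, which are Eif5a, Eif3b, Eif2b3, Eif2b1, Eif3i, Eif2s1, Eif4g1, Eif3a, Eif1a, Eif3l, Eif1ax and Eif4ebp1. Groups of 3 libraries are too small for a test of single outlying libraries.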

How the results depend on the processing

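Of 122 member calls over the 5 comparisons, 91 held in every alternative and no call changed sign; by comparison, 23 of 30 held for KIKO against KI in activated cells, 0 of 2 in naive cells, 32 of 38 for activation in KI, 24 of 30 in KIKO and 12 of 22 for the interaction. The naive genotype comparison called 1009 loci, 493 to 1166 on leaving out 1 library (493 without KI naive 1, 557 without KI naive 2, 531 without KI naive 3), and 456 without both KI libraries numbered 3. Its 2 members called higher became 1 with no filter, 0 with median-ratio scaling, 5 with quantile normalization, 9 with equal sums, 0 without the intensity trend, 1 without both KI libraries numbered 3, 1 without both KIKO libraries numbered 2, and 0 to 4 on leaving out 1 library (0 without KI naive 1 or 2, KI activated 2, KIKO naive 1 or KIKO activated 1, 1 without KIKO naive 2 or 3, and 4 without KIKO activated 3, against 3 without KIKO activated 2). Its 0 members called lower became 1 with quantile normalization, 1 with the libraries of the comparison only, and 0 to 1 on leaving out 1 library (1 without KIKO activated 3). In KI activation the 2 members called lower became 5 with quantile normalization. The interaction called 2010 loci, 1165 without both KI libraries numbered 3 and 1363 to 2085 on leaving out 1 library. Its 20 members called lower became 12 with quantile normalization, 12 without both KI libraries numbered 3, and 12 to 22 on leaving out 1 library (12 without KI activated 2 or 3, 13 without KI naive 2), and its 2 called higher became 1 without both KI libraries numbered 3. The cause of these changes was not tested. FPKM hold no depth, so low levels such as those of Eif5a2 and Eif2ak4 have an unknown counting error.

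The groups share replicate numbers, and no label says that a number pairs libraries. Deviations of same-numbered libraries correlated at 0.0555, 0.0792 and 0.102 between KI activated and KI naive cells. They correlated at -0.00438, 0.0939 and 0.035 between KIKO activated and KIKO naive cells. The missing Y-linked genes of the KI libraries numbered 3 and the myeloid transcripts of the KIKO libraries numbered 2 recurred in both states. Same-numbered libraries of a genotype may therefore share a source, which the main fit left out. Each KI library correlated best with its own number in the other KI group, and KIKO libraries 1 and 3 did not. The replicate block gave KI and KIKO libraries of the same number a common term, so it did not test pairing within a genotype. With the replicate block, 3825 loci were called in activated and 875 in naive cells between genotypes, 5939 on activation in KI, 4511 in KIKO and 1849 in the interaction. The block ended the calls of Eif4g3 in activated cells, Eif3d in naive cells, Eif4e on activation in KIKO, and Eif2a, Eif3m and Eif4e2 in the interaction, and it added calls of Eif5 in naive cells and Eif2s3x on activation in KIKO.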

Other observations

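6 of the 55 protein-coding initiation factor genes of GENCODE had no locus of their own name, and for 3 of them, Eif2s3y described above, Eif4a2 and Eif4g2, a locus listed under another name holds introns of the same lengths. The locus listed as Gm24616 shares 10 of its 11 introns with Eif4a2, the second helicase of the cap complex. It had 228, 198 and 237 FPKM in KIKO activated libraries, against 185, 212 and 171 FPKM in KI activated libraries, and 199, 251 and 217 FPKM in KIKO naive libraries and 240.0, 236 and 272 FPKM in KI naive libraries. The KI naive libraries were the highest group on average, and the locus was lower in activated than in naive KI cells by -0.40 ± 0.12 on the log2 scale (SE, limma adjusted p = 0.0105), while Eif4a1 was higher by 2.09. The genotype difference in activated cells was 0.22 ± 0.12 (limma adjusted p = 0.15). The locus listed as 1700012D14Rik shares 4 of its 4 introns with Eif4g2, which encodes a relative of eIF4G that cannot bind eIF4E. It had 76.1, 87.0 and 67.0 FPKM in KIKO activated libraries, against 94.9, 112 and 111 FPKM in KI activated libraries, and 83.8, 67.8 and 80.3 FPKM in KIKO naive libraries and 88.4, 78.3 and 88.7 FPKM in KI naive libraries. All 3 KIKO activated libraries were below all 3 KI activated ones, by -0.46 ± 0.12 (SE, limma adjusted p = 0.00789). On activation it differed by -0.01 ± 0.12 in KIKO (limma adjusted p = 0.935) and was higher by 0.31 ± 0.12 in KI (limma adjusted p = 0.0376).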
